A study of Mus musculus with 32 samples.

Results

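Chemokines are small secreted proteins that draw leukocytes into tissue along a gradient, and they act through receptors coupled to G proteins on the surface of the migrating cells. Each leukocyte type carries its own receptors: CXCR2 marks neutrophils, CCR2 inflammatory monocytes, CXCR3 activated T cells and NK cells, and CCR10 many of the plasma cells that make IgA. Injured intestinal epithelium, stromal cells and macrophages make inflammatory chemokines, many of them through the transcription factor NF-kappaB, which receptors for microbial products and for the cytokines IL-1 and IL-18 switch on through the adaptor protein Myd88. The genes described here were the probe sets of a mouse whole-genome Affymetrix array whose single annotated symbol was a CC or CXC chemokine, a CC or CXC receptor with a number, Cx3cl1 or Cx3cr1, with the brightest probe set taken for each gene. They numbered 47 of 18193 measured genes, 32 of them ligands and 15 receptors, covered by 75 of the 45101 probe sets. Cxcr1, Ccl19, Ccl21a, Ccl21b and Ccl21c were not analysed here.

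RNA of the distal colon was measured on 32 arrays, 1 for each mouse, in 4 groups of strain C57 BL6NCr. Treated wild-type (WT) mice and treated Myd88-/- (KO) mice numbered 10 each. They were 6 to 8 weeks old when injected intraperitoneally with 10 mg/kg azoxymethane (AOM), a carcinogen that gives rodents colon tumours. From 1 week later their water held 2% dextran sodium sulfate (DSS), an agent toxic to the gut lining, for 3 days, after which they were killed, and their disease state is given as colitis. Untreated WT and untreated KO mice numbered 6 each. For these the labels give no age or protocol, so treatment cannot be told apart from any difference in handling. The KO line was backcrossed to the B6NCr background, which the WT controls share, and the labels name neither the removed part of Myd88 nor a litter, cage, sex or batch. Levels are log2 signals after quantile normalization, and 3.32 (a linear signal of 10) is a floor below which no deposited value lay.

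Without treatment Myd88 averaged 8.40 ± 0.11 in WT and 7.67 ± 0.11 in KO mice (SD, n = 6 each). With treatment the averages were 8.46 ± 0.12 and 8.00 ± 0.31 (SD, n = 10 each), and those groups overlapped between 8.26 and 8.31. Whether the probe set lies within the removed part is not stated. Arrays of a group correlated at r between 0.935 and 0.985 across genes. The mean of 9 colon epithelium markers lay between 11.57 and 12.43 on every array, so markers of the labelled tissue were present. The mean of 14 squamous epithelium markers was uneven: it ran from 4.41 to 11.45 in treated WT mice, with repeat 1 highest and repeat 2 at 10.01, from 4.47 to 8.24 in treated KO mice and from 4.24 to 8.55 in untreated mice.

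Promoters of 5 genes are shown because their RNAs carry the results below or contrast with them: the neighbours Cxcl1, Cxcl2 and Cxcl3, which encode closely related neutrophil attractants, the interferon-induced Cxcl10, and Ccl28, the one gene that fell in any comparison. The sequences are from RefSeq (build GRCm38.p6) and end at the base before the annotated start. Capitals mark matches on either strand to the NF-kappaB pattern GGGAANNNCC or, in Cxcl10 alone, also to the interferon response pattern GAAANNGAAA, which is the first run in capitals there.
Cxcl1: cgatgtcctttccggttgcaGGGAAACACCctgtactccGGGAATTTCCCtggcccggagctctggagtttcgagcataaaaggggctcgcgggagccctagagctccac
Cxcl2: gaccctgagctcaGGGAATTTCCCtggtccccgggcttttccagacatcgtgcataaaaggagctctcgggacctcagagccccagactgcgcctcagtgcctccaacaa
Cxcl3: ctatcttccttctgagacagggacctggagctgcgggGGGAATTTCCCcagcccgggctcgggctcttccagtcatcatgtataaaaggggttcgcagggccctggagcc
Cxcl10: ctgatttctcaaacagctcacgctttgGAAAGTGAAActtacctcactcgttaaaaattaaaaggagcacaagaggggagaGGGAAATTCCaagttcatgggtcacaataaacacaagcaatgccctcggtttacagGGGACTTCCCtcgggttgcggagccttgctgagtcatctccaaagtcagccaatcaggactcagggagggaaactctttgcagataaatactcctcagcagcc
Ccl28: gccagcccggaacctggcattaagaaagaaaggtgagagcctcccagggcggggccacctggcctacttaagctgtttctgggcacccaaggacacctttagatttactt
The windows are chr5:90891135-90891244 (plus strand) for Cxcl1, chr5:90903789-90903898 (plus) for Cxcl2, chr5:90785991-90786100 (plus) for Cxcl3, chr5:92348890-92349129 (minus) for Cxcl10 and chr13:119623709-119623818 (plus) for Ccl28. In Cxcl1, Cxcl2 and Cxcl3 the run that reads the same letters in all 3 genes, of which the first 10 bases match on the plus strand and the last 10 on the minus strand, holds 2 overlapping matches. No match to either pattern was found in the 250 bases before the start of Ccl28.

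Over the 250 bases before the start, the NF-kappaB pattern occurred in 9 of the 38 promoters found for 34 of the 47 genes (23.7%), against 4.94% of 32851 promoters in the table. The 9 genes with a match were Ccl20, Cxcl3, Cxcl1, Cxcl2, Cxcl9, Cxcl10, Ccr3, Ccl1 and Ccr6. Of the 9 promoters that belonged to genes called in any comparison, 2 held it, those of Cxcl2 and Cxcl10. The interferon pattern occurred in 2 of the 38 (5.26%), those of Cxcl10 and Cxcl14, against 2.98% of all promoters. Ccr3 and Ccl1, which hold the NF-kappaB pattern, were dim, on the floor on 26 and 25 of the 32 arrays. A match describes the letters of the window and says nothing of binding.

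In KO mice treatment raised some chemokine RNAs. Of the 47 genes 9 rose and 1 fell between treated and untreated KO mice (limma, Benjamini-Hochberg adjusted p under 0.05 over 18193 genes). The share called was 21.3%, near the background over all genes of 18.7% (8.7% up and 10% down), and 37 of the 47 were not called. Differences lay above 0 for 37 of the 47 genes with a median of 0.34 log2 units, and for 48.6% of all genes with a median of 0. The genes that rose were the ligands Cxcl5, Ccl8, Cxcl10, Cxcl2, Ccl9, Ccl3, Cxcl16 and Cx3cl1 and the receptor Ccr1. The gene that fell was Ccl28. When arrays were centred on their medians 65.8% of the called genes of the whole table were higher, against 46.4% after quantile normalization and 39.1% in the values as deposited, and 38 and 34 of the 47 genes lay above 0 under those scalings.

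In WT mice treatment raised 2 of the 47, Ccl8 and Cxcl5, and lowered 0 (limma), a share of 4.26% against a background of 1.84% of all genes (0.605% up and 1.24% down). At an unadjusted p under 0.05, 8 were higher and 1 was lower, against 2709 of all 18193 genes in either direction. The median difference was 0.09, with 29 of the 47 above 0. The difference between the responses of the genotypes was itself tested, and limma called 0 of the 47 (background 0.055% of all genes, 0.0495% up and 0.0055% down). At an unadjusted p under 0.05 there were 3 of the 47, against 2130 of all 18193 genes. These 3 were Ccl28 (-0.735 ± 0.24, adjusted p = 0.208), Cx3cl1 (0.445 ± 0.16, adjusted p = 0.242) and Ccl3 (0.76 ± 0.35, adjusted p = 0.397). A call in KO mice alone is therefore not shown to differ from the WT response.

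**Figure D1:**
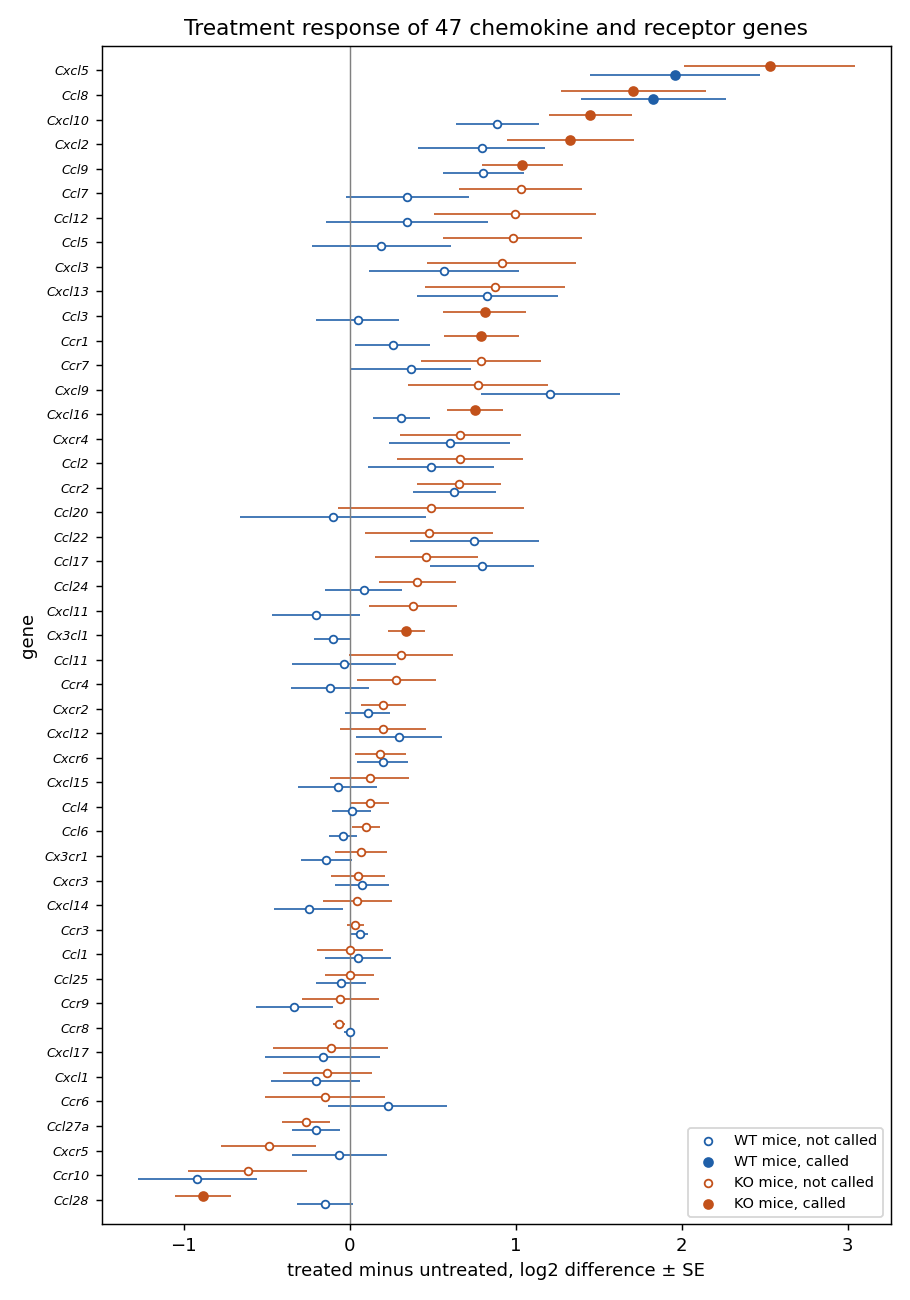
Treatment responses of the 47 genes, treated minus untreated, as log2 differences on the x axis with bars of 1 SE, for WT (blue) and KO mice (orange); filled points passed limma's adjusted p under 0.05. Genes are ordered by the KO response, from Cxcl5 at 2.53 to Ccl28 at -0.88, and 10 points are filled for KO against 2 for WT mice.

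The neutrophil attractant Cxcl5 rose in both genotypes and was the member with the largest KO response. Its log2 signal ran from 4.17 to 6.67 (median 4.95) in untreated WT and from 5.77 to 9.82 (median 6.84) in treated WT mice. In KO mice it ran from 3.815 to 4.71 (median 4.16) without and from 5.04 to 8.41 (median 6.59) with treatment. All 10 treated KO arrays thus lay above all 6 untreated KO arrays, while 5 of 10 treated WT arrays lay above the highest untreated WT array. The rise was 2.53 ± 0.51 in KO mice (5.76-fold, limma adjusted p = 0.000941) and 1.96 ± 0.51 in WT mice (3.89-fold, adjusted p = 0.0405). The WT call ended without any single one of treated WT repeats 2, 4, 6, 7 and 9 or untreated WT repeats 2 to 6, where the adjusted p reached 0.107. Adjusting for the 2 tissue marker means, of squamous epithelium and of skeletal muscle, left a WT value of 1.64 (adjusted p = 0.177), and adjusting for RNA integrity, the 3'/5' probe difference, left 1.77 (adjusted p = 0.102).

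Cxcl2, another CXCR2 ligand, rose in KO mice. Treated KO arrays ran from the floor to 6.78 (median 4.80), against 3.32 to 4.02 (median 3.57) in untreated KO mice, and 8 of the 10 lay above every untreated KO array. The rise was 1.33 ± 0.38 (2.51-fold, limma adjusted p = 0.014). In WT mice it ran from 3.32 to 3.76 (median 3.50) without and from 3.32 to 5.11 (median 4.28) with treatment, a difference of 0.80 ± 0.38 (adjusted p = 0.323), although 9 of 10 treated arrays lay above every untreated one. Cxcl2 sat on the floor in 5 arrays, 2 untreated WT and 1 in each other group. Fitted on the KO arrays alone, its adjusted p was 0.0948.

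Of the 6 genes of the CXCR2 group 2 rose in KO mice and 1 in WT mice, and none fell. The shares called were 33.3% in KO and 16.7% in WT mice, against 18.7% and 1.84% of all genes. Cxcl1, whose promoter is shown above, was at -0.13 ± 0.27 in KO mice (limma adjusted p = 0.811) and -0.20 ± 0.27 in WT mice. Its probe set is of a type that Affymetrix marks as open to cross-hybridization, and its other probe sets were at 0.67 ± 0.40 and 0.38 ± 0.23 in KO and at 1.04 ± 0.40 and 0.25 ± 0.23 in WT mice, none called, so the probe sets differ in sign. Cxcl3 was at 0.92 ± 0.45 in KO mice (adjusted p = 0.16). Its highest value, 6.95, came from the same mouse as the highest Cxcl5 value, treated WT repeat 2. The receptor Cxcr2 lay on the floor in all 12 untreated mice, in 7 of 10 treated WT and in 8 of 10 treated KO mice. Of 8 measured neutrophil markers 1 rose in KO mice (12.5%, against 18.7% of all genes called). It was the growth factor receptor gene Csf3r (1.01 ± 0.30, limma adjusted p = 0.0191), and 0 markers were called in WT mice. The mean level of these 8 markers lay between 3.86 and 4.95 in untreated, 4.06 and 6.13 in treated WT and 4.03 and 5.42 in treated KO mice. It was highest in treated WT repeat 2, and its part in the CXCR2 ligand values was not tested.

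Cxcl10, a T cell attractant induced by interferon, rose in KO mice, where all 10 treated arrays (5.92 to 7.40, median 6.53) lay above all 6 untreated arrays (4.77 to 5.79, median 5.05). The rise was 1.45 ± 0.25 (2.74-fold, limma adjusted p = 0.000197). With Cxcl5 it made 2 of the 47 genes whose treated and untreated KO arrays did not overlap, against 2.04% of all genes. In WT mice Cxcl10 ran from 4.89 to 6.215 (median 5.36) without and from 5.63 to 7.72 (median 6.35) with treatment. That difference, 0.89 ± 0.25, did not pass (adjusted p = 0.0617).

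The other CXCR3 genes were called in neither genotype after treatment. Cxcl9, a further interferon-induced ligand, was at 0.77 ± 0.42 in KO mice (adjusted p = 0.213) and 1.21 ± 0.42 in WT mice (adjusted p = 0.146), and its second probe set was at 0.24 and 0.13. Cxcl11 was at 0.38 ± 0.27 and -0.20 ± 0.27. The receptor Cxcr3 was at 0.05 ± 0.16 and 0.08 ± 0.16. Among 11 measured T and NK cell markers 1 rose in KO mice, the coreceptor gene Cd4 (0.83 ± 0.27, adjusted p = 0.0309), and 0 were called in WT mice; the list mean lay between 3.61 and 4.89 over all 32 arrays, near the floor.

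Ccl8, an attractant of monocytes and other leukocytes, rose in both genotypes. In WT mice it ran from 6.13 to 7.57 (median 6.65) without and from 6.97 to 9.63 (median 8.75) with treatment, and 9 of 10 treated arrays lay above every untreated array. In KO mice it ran from 6.06 to 7.97 (median 7.21) without and from 6.75 to 10.88 (median 9.06) with treatment, with 7 of 10 above. The rise was 1.83 ± 0.44 in WT (3.55-fold, limma adjusted p = 0.0249) and 1.71 ± 0.44 in KO mice (3.26-fold, adjusted p = 0.00611). The WT call ended without untreated WT repeat 1, 4 or 6, at adjusted p up to 0.0696, and with RNA integrity (the 3'/5' probe difference) in the model, at 1.55 (adjusted p = 0.0613).

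The other ligands listed in 1 group with Ccl8 and Ccr2 were higher after treatment in KO mice without passing the test. Ccl7 was at 1.03 ± 0.37 (limma adjusted p = 0.0506), Ccl12 at 1.00 ± 0.49 (adjusted p = 0.162) and Ccl2 at 0.66 ± 0.38 (adjusted p = 0.24). The receptor gene Ccr2 was at 0.66 ± 0.25 in KO (adjusted p = 0.0647) and 0.63 ± 0.25 in WT mice (adjusted p = 0.212). Over these 5 genes the median KO response was 1.00 and the median WT response 0.49, with 1 called in each.

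Of the group made up of Ccl3, Ccl4, Ccl5, Ccl6, Ccl9 and the receptor Ccr1, which act on monocytes, macrophages and T cells, 3 of 6 genes rose in KO mice: Ccl3, Ccl9 and Ccr1. Ccl3 lay on the floor in all 12 untreated mice. It rose above the floor in 6 of 10 treated KO mice, at 3.99, 4.77, 4.33, 5.25, 5.65 and 4.08 in repeats 2, 3, 4, 5, 7 and 10. In treated WT mice it did so in 2 of 10, at 3.75 in repeat 7 and 3.39 in repeat 8. The KO difference of 0.81 ± 0.25 (limma adjusted p = 0.0215) is taken against a floor and understates the change. It did not pass when the KO arrays were fitted alone (adjusted p = 0.15).

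Ccl9 ran from 7.46 to 8.05 (median 7.89) in untreated and from 7.525 to 9.91 (median 8.98) in treated KO mice, 9 of 10 above every untreated array. Its KO rise was 1.04 ± 0.24 (2.05-fold, limma adjusted p = 0.00303). In WT mice 9 of 10 treated arrays (7.75 to 8.86, median 8.34) also lay above the untreated ones (7.26 to 7.82, median 7.55), at 0.81 ± 0.24 (adjusted p = 0.0827). A second Ccl9 probe set gave 0.91 ± 0.25 in KO mice (adjusted p = 0.0118 among all probe sets).

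Ccr1 ran from 5.64 to 6.52 (median 6.14) in untreated and from 5.78 to 7.90 (median 6.93) in treated KO mice, 7 of 10 above every untreated array. Its rise was 0.79 ± 0.23 (1.73-fold, limma adjusted p = 0.0137). It was 0.565 ± 0.29 by its other probe set (adjusted p = 0.206), and the KO arrays fitted alone gave an adjusted p of 0.0861. In WT mice Ccr1 was at 0.26 ± 0.23 (5.94 to 6.70, median 6.28, against 6.01 to 6.99, median 6.45). Ccl6, a further ligand of CCR1, was at 0.10 ± 0.09 in KO and -0.04 ± 0.09 in WT mice, and Ccl5, which draws T cells and monocytes, at 0.98 ± 0.42 in KO mice (adjusted p = 0.103).

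Of 13 measured macrophage markers 2 rose in KO mice (15.4%, against 18.7% of all genes called), the lysosomal protein gene Cd68 (1.18 ± 0.30, limma adjusted p = 0.0058) and Ms4a7 (0.67 ± 0.225, adjusted p = 0.0357), with 11 above 0 and a median of 0.475. In WT mice 0 were called, with 12 above 0 and a median of 0.43. Their mean level lay between 7.70 and 8.22 in untreated, 8.04 and 8.79 in treated WT and 7.44 and 9.41 in treated KO mice, with the lowest treated KO value in repeat 9 and the highest in repeat 3. In RNA of whole tissue, more cells of a type and more RNA per cell cannot be told apart, and the part of these markers in the chemokine results was not tested.

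Among 13 mucosal and epithelial genes 2 rose and 1 fell in KO mice, and 0 were called in WT mice (1 at an unadjusted p under 0.05). Of 9 colon epithelium markers 6 rose in KO mice (66.7%, against 18.7% of all genes called), with a median of 0.26, among them Cdx2 (0.75 ± 0.17, limma adjusted p = 0.00249) and Krt20 (0.69 ± 0.19, adjusted p = 0.0095), and 0 were called in WT mice. Their mean lay between 11.83 and 12.01 in untreated and 12.02 and 12.43 in treated KO mice, and its part in the values of these genes was not tested. Cxcl16, the ligand of Cxcr6 found on intestinal T cells and innate lymphoid cells, ran from 6.39 to 7.07 (median 6.73) in untreated and from 6.54 to 8.04 (median 7.50) in treated KO mice, with 9 of 10 above. It rose by 0.76 ± 0.17 (1.69-fold, limma adjusted p = 0.00223), and by 1.16 ± 0.24 on its other probe set (adjusted p = 0.00119). In WT mice it ran from 6.64 to 7.035 (median 6.89) without and from 6.70 to 7.65 (median 7.15) with treatment, at 0.31 ± 0.17 (adjusted p = 0.4). Its receptor gene Cxcr6 was at 0.18 ± 0.15 in KO and 0.20 ± 0.15 in WT mice.

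Cx3cl1 encodes a membrane-bound chemokine whose receptor Cx3cr1 marks resident intestinal macrophages. It ran from 8.04 to 8.44 (median 8.21) in untreated and from 8.25 to 8.87 (median 8.545) in treated KO mice, with 7 of 10 above. The rise was 0.34 ± 0.11 (1.27-fold, limma adjusted p = 0.0294). Of its 4 probe sets, a second gave 0.65 ± 0.18 (adjusted p = 0.0113), another 0.25 ± 0.19 (adjusted p = 0.397), and the last is not given here. In WT mice it was at -0.10 ± 0.11. The KO call ended without any single one of treated KO repeats 2, 4 and 5 or untreated KO repeats 3, 4 and 6, at adjusted p up to 0.0747. Cx3cr1 was at 0.07 ± 0.16 in KO mice.

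Ccl28, which colon epithelium secretes and which draws IgA plasma cells through CCR10, fell in KO mice. It ran from 10.20 to 10.57 (median 10.51) in untreated and from 8.54 to 10.45 (median 9.55) in treated KO mice, and 9 of the 10 treated arrays lay below every untreated array. The exception was repeat 9 at 10.45. In WT mice it ran from 10.48 to 10.68 (median 10.6) without and from 9.92 to 10.70 (median 10.46) with treatment. The KO difference was -0.88 ± 0.17 (1.84-fold lower, limma adjusted p = 0.000618), the WT difference -0.15 ± 0.17 (adjusted p = 0.768). The 2 other Ccl28 probe sets gave -1.03 ± 0.24 (adjusted p = 0.0037) and -0.925 ± 0.17 (adjusted p = 0.00045) in KO mice. The KO call was kept in all 43 settings.

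Ccr10, the receptor gene, was dim. In untreated WT mice it ran from 5.16 to 5.55 (median 5.43), and all 10 treated WT mice lay below, from 3.32 to 5.12 (median 4.865). It was the 1 gene of the 47 whose treated and untreated WT arrays did not overlap, against 1.42% of all genes. Even so the WT difference of -0.92 ± 0.36 did not pass (limma adjusted p = 0.204), and untreated KO mice ran from 3.32 to 5.67 (median 4.66). In treated KO mice 6 of 10 lay on the floor, and the KO difference was -0.61 ± 0.36 (adjusted p = 0.251).

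Of the B and plasma cell genes listed, some fell and others did not. Jchain, which joins the units of secreted IgA, fell in KO mice from 10.91 to 12.26 without to 8.62 to 10.23 with treatment, with no overlap, by 2.27 ± 0.27 on the log2 scale (limma adjusted p = 3.35e-06). In WT mice it fell by 1.10 ± 0.27 (adjusted p = 0.0283). Mzb1, a chaperone gene of antibody-secreting cells, fell by 1.67 ± 0.24 in KO (adjusted p = 2.85e-05) and by 1.09 ± 0.24 in WT mice (adjusted p = 0.0162). Of 10 measured B and plasma cell markers 3 fell in KO mice, the other being the B cell receptor gene Cd79b (-1.48 ± 0.49, adjusted p = 0.0338), and 3 fell in WT mice. Over all genes 10% fell in KO and 1.24% in WT mice. Tnfrsf17, also on the list, averaged 4.872 in untreated and 3.758 in treated WT mice, and 4.158 and 3.81 in KO mice. Xbp1, a transcription factor that secretory epithelium also uses, rose in KO mice (0.27 ± 0.09, adjusted p = 0.0289). The listed genes Sdc1 (0.07 ± 0.11) and Irf4 (0.03 ± 0.21) were not called. Sdc1 was bright, with group means from 10.69 to 10.95, and which cells of the colon gave its signal was not tested. The list mean lay between 6.91 and 7.76 in untreated WT, 6.48 and 7.45 in treated WT, 6.56 and 7.67 in untreated KO and 6.09 and 7.27 in treated KO mice. Among the 10 treated KO mice the orders of Ccl28 and Jchain were alike in some mice and unlike in others. Repeat 1, next to the highest for Ccl28 at 10.18, had the lowest Jchain at 8.62. Repeat 10, next to the lowest for Ccl28 at 9.28, had the highest Jchain at 10.23. Repeat 4, lowest for Ccl28 at 8.54, had Jchain at 8.91 and the lowest Mzb1 at 4.77. Repeat 9, highest for Ccl28 at 10.45, had Jchain at 9.865. No correlation was computed for these genes. The part of plasma cells in the Ccl28 and Ccr10 values was not tested.

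**Figure D2:**
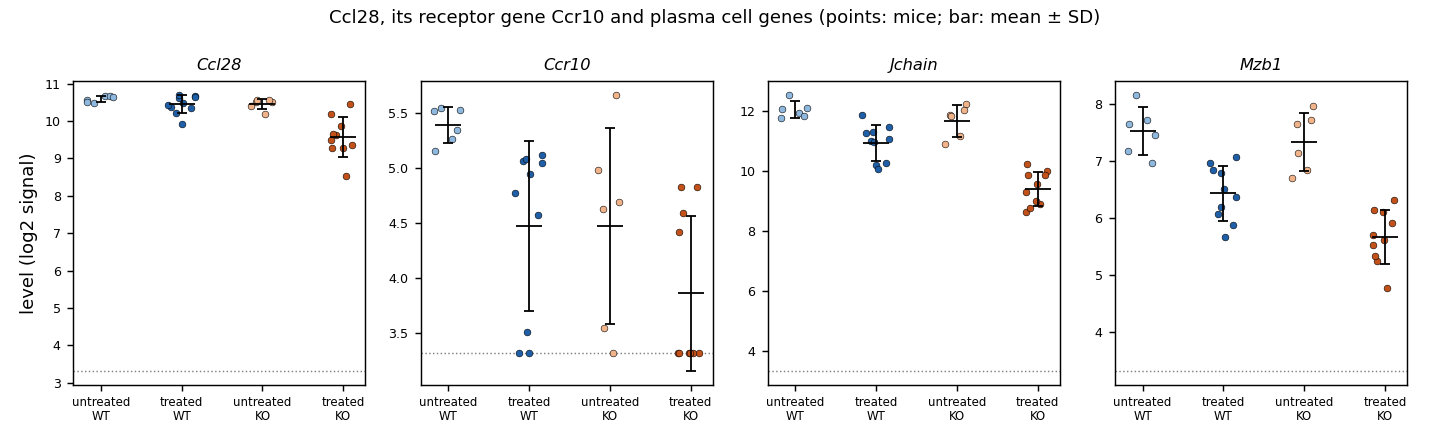
Log2 signals of Ccl28, Ccr10, Jchain and Mzb1 in each mouse (points) of the 4 groups, with mean and SD as bars and the floor at 3.32 as a dotted line. The mean mark of untreated WT mice is hidden in the Ccl28 and Jchain panels, and the y axes differ between panels. In treated KO mice Ccl28 spans 8.54 to 10.45 and 9 of 10 points lie below the untreated KO range of 10.20 to 10.57, 6 Ccr10 points sit on the floor, and no Jchain point reaches the untreated KO range.

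Of the other groups, 0 genes were called after treatment in either genotype (limma), against 18.7% of all genes in KO and 1.84% in WT mice. At an unadjusted p under 0.05 there were 5671 of all 18193 genes in KO and 2709 in WT mice. Eotaxins and Ccr3 (3 genes), which serve eosinophils, had 0 at an unadjusted p under 0.05, with Ccl11 at 0.31 ± 0.315 in KO mice (adjusted p = 0.558). Among 5 genes of the CCR4 and CCR8 group, which serve helper and regulatory T cells, 1 had an unadjusted p under 0.05 in WT mice and 0 in KO mice. That gene, Ccl17, was at 0.80 ± 0.31 in WT (adjusted p = 0.206) and 0.46 ± 0.31 in KO mice (adjusted p = 0.334). Among 5 lymphoid and homeostatic genes 2 had an unadjusted p under 0.05 in KO mice and 0 in WT mice. The B cell attractant Cxcl13 was at 0.88 ± 0.42 in KO and 0.83 ± 0.42 in WT mice. The stromal ligand Cxcl12 was at 0.20 ± 0.26 in KO mice (adjusted p = 0.662).

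Beside the background of 18.7% of all genes called in the KO response, ligands and receptors had these counts, whose difference was not tested. Of 32 ligands 8 rose and 1 fell in KO mice (28.1%) with a median of 0.47. Of 15 receptors 1 rose and 0 fell (6.67%) with a median of 0.07, and 3 had an unadjusted p under 0.05, against 5671 of all 18193 genes. In WT mice 2 ligands and 0 receptors were called, where 1.84% of all genes were. At an unadjusted p under 0.05 there were 2 receptors in WT mice, against 2709 of all 18193 genes. By chromosome, 4 of 14 genes on chromosome 11, which carries most CC ligand genes, and 3 of 10 on chromosome 5, which carries most CXC ligand genes, rose in KO mice, at medians of 0.77 and 0.83, where 8.7% of all genes rose. Of the 47 genes, 23 were above the floor on all 32 arrays, 16 lay on it on 1 to 15 arrays and 8 on 16 or more.

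**Figure D3:**
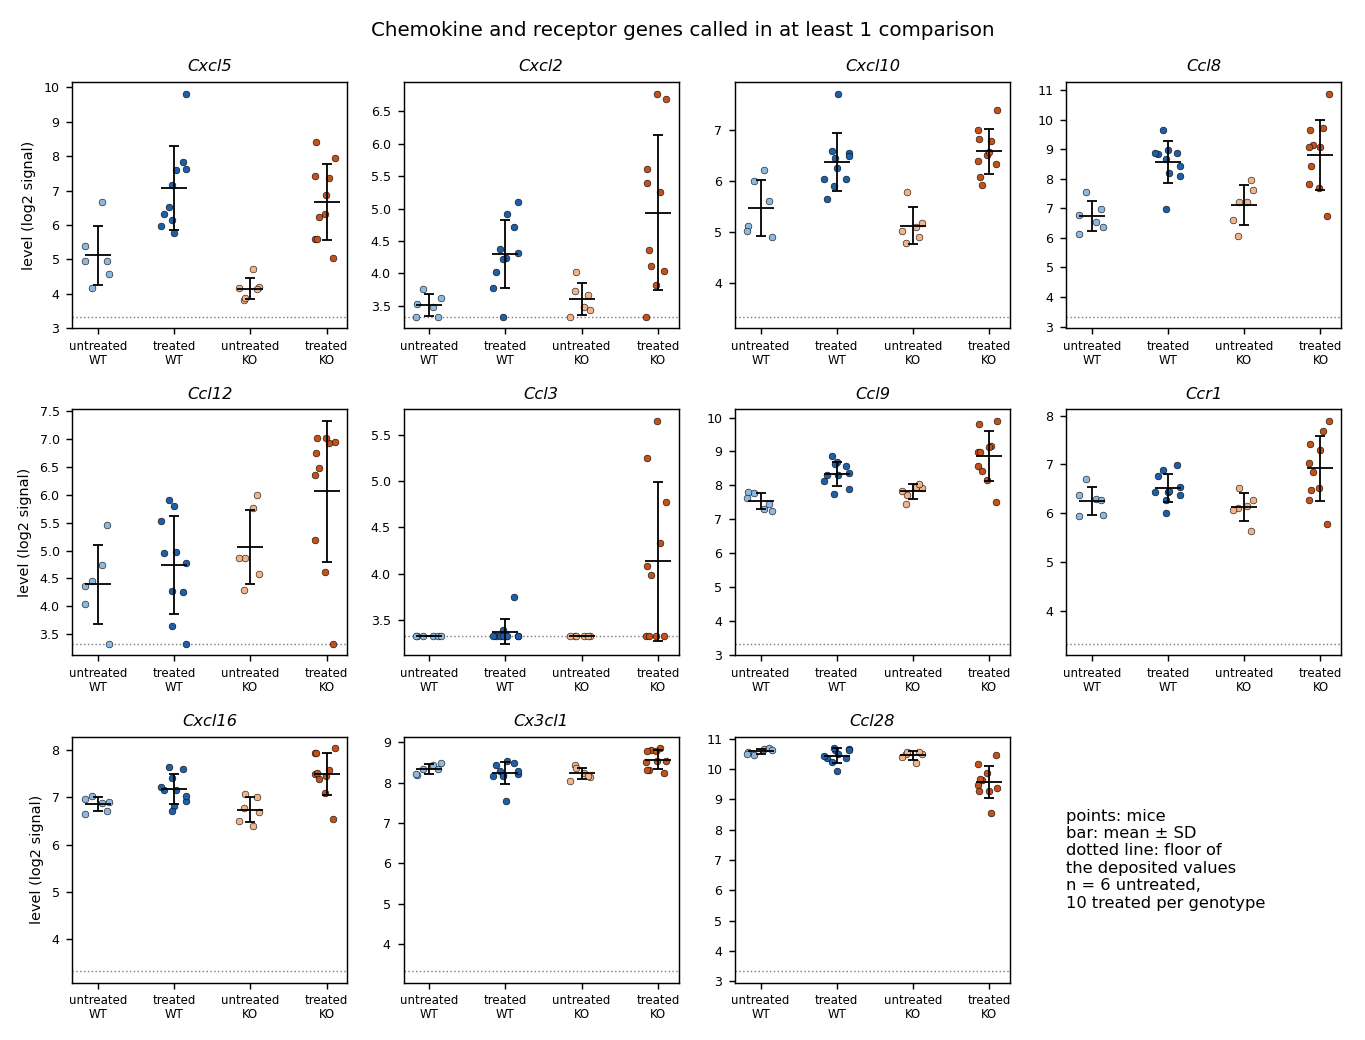
Log2 signals of the 11 genes called in at least 1 comparison, 1 point for each mouse, with mean and SD as bars (n = 6 untreated, 10 treated) and the floor at 3.32 as a dotted line; y axes differ between panels. Cxcl5 and Cxcl10 separate treated from untreated KO mice, Ccl3 leaves the floor mainly in 6 treated KO mice, and Ccl28 alone goes down.

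Between the genotypes after treatment, 3 of the 47 genes were higher and 1 lower in KO mice: Ccl12, Ccl3 and Cx3cl1 against Ccl28. The share was 8.51%, under the background of 12.8% of all genes (6.24% up and 6.57% down). The median difference over the 47 was 0.03, with 25 above 0; in the values as deposited it was -0.01 with 22 above 0. Among all called genes, 48.7% were higher in KO mice, 74.6% when arrays were centred on their medians and 41.8% in the values as deposited.

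Ccl28 was lower in treated KO than treated WT mice (-0.87 ± 0.15, 1.83-fold lower, limma adjusted p = 0.000376), and 8 of 10 KO arrays lay below every WT array. No gene of the 47 separated the treated genotypes without overlap, against 0.231% of all genes. Its other probe sets gave -0.84 ± 0.21 (adjusted p = 0.00868) and -0.81 ± 0.15 (adjusted p = 0.000877). Jchain (-1.54 ± 0.23, adjusted p = 0.000135) and Mzb1 (-0.77 ± 0.21, adjusted p = 0.0143) were lower in the same comparison. Of 9 colon epithelium markers 4 were higher and 0 lower (44.4%, against 12.8% of all genes called). The part of these genes and markers in the Ccl28 difference was not tested. Ccl28 was called in all 43 settings.

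Ccl12, a monocyte attractant, was higher in treated KO mice, where it ran from 3.32 to 7.02 (median 6.61) against 3.32 to 5.90 (median 4.87) in treated WT mice, with 7 of 10 above every WT array. The difference was 1.32 ± 0.42 (2.49-fold, limma adjusted p = 0.0374). It was called in 27 of 42 settings. The call ended without any single one of treated WT repeats 2, 4, 6, 7 and 8 or treated KO repeats 2, 3, 4, 5, 7, 8 and 10 (adjusted p up to 0.0793), fitting the treated mice alone gave 0.0963, and with RNA integrity in the model the value was 1.05 (adjusted p = 0.096). Untreated mice ran from 3.32 to 5.46 (WT, median 4.41) and from 4.30 to 5.99 (KO, median 4.87).

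Ccl3 was higher in treated KO mice by 0.76 ± 0.22 (1.7-fold, limma adjusted p = 0.0185), with 6 of 10 above every WT array. Cx3cl1 was higher by 0.34 ± 0.10 (1.26-fold, adjusted p = 0.0192), and its other probe sets are not given for this comparison. Cx3cl1 ran from 8.25 to 8.87 (median 8.545) in KO and from 7.56 to 8.53 (median 8.26) in WT mice, of which repeat 1 was lowest and had the highest squamous marker mean. Without treated WT repeats 1 and 2 the Cx3cl1 difference was 0.25 (adjusted p = 0.0542), and with the tissue means as covariates it was 0.23 (adjusted p = 0.117). When the treated groups alone were fitted, neither passed (adjusted p = 0.0882 for Ccl3 and 0.0696 for Cx3cl1), and with RNA integrity in the model Ccl3 was at 0.65 (adjusted p = 0.0503).

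Some genes missed the threshold narrowly between treated genotypes. Cxcr3 was at 0.41 ± 0.14 (limma adjusted p = 0.0542), Cxcl11 at 0.61 ± 0.23 (adjusted p = 0.0765) and Ccl7 at 0.84 ± 0.32 (adjusted p = 0.0843). Cxcl5 was at -0.40 ± 0.44, Ccl8 at 0.26 ± 0.38 and Cxcl10 at 0.215 ± 0.22, with overlapping groups for each. Without treated KO repeat 9 the count of called genes was 9, with Ccl9, Ccr1, Cxcl11, Cxcl16 and Cxcr3 added. Without treated KO repeat 1 it was 7, with Ccl2, Ccl7 and Cxcr3 added. Fitted on the treated mice alone it was 1, Ccl28.

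Among untreated mice 0 of the 47 genes differed between genotypes (limma), against 0.115% of all genes (0.0385% up and 0.077% down). The groups of none of the 47 were free of overlap, against 0.951% of all genes. At an unadjusted p under 0.05 there were 3, against 1305 of all 18193 genes. They were Cx3cr1 (-0.43 ± 0.175, adjusted p = 0.603), Cxcr3 (0.44 ± 0.18, adjusted p = 0.633) and Ccr10 (-0.92 ± 0.40, adjusted p = 0.649). Cxcl5 was at -0.96 ± 0.57 (adjusted p = 0.785). Over the 47 genes 15 lay above 0, with a median of -0.07, and 14 and 15 did so when arrays were centred on their medians or left as deposited.

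Chromosome 9 carries Myd88 and 9 of the 15 receptor genes, where sequence of the original strain can remain in a backcrossed line; whether it did here was not tested. Of the protein-coding genes of the GRCm38.p6 annotation, 12 lie between Myd88 and Cx3cr1, 13 to Ccr8, 64 to Ccr9, 66 to Cxcr6, 68 to Ccr1, 70 to Ccr3 and 71 to Ccr2. On the other side 28 lie between Myd88 and Ccr4 and 709 to Cxcr5. Limma called 0 of these 9 between the genotypes, treated or untreated, with 1 at an unadjusted p under 0.05 in each comparison. Over all 18193 genes the unadjusted counts were 4728 in treated and 1305 in untreated mice. Without treatment Ccr9 was at -0.44 ± 0.26 (adjusted p = 0.78) and Ccr4 at -0.35 (adjusted p = 0.861). After treatment Cx3cr1 was at -0.22 ± 0.135, Ccr2 at -0.12 ± 0.22 and Ccr1 at 0.40 ± 0.20 (adjusted p = 0.19).

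Treated KO mice varied widely. The SD was larger in treated KO than in treated WT mice for 34 of the 47 genes (72.3%, against 70.2% of all genes), at a median ratio of 1.42 (1.3 over all genes). Over the 9 genes that rose in KO mice, repeats 2, 3, 4, 5 and 7 lay above every untreated KO array for all 9. Repeat 10 did so for 8, repeats 6 and 8 for 6, repeat 1 for 5 and repeat 9 for 3. Repeat 3 was the highest of the 10 for 5 of the 9 genes, and repeat 9 the lowest for 7, ties included. Treated WT repeats lay above every untreated WT array for 1 (repeat 8) to 7 (repeats 7 and 9) of the same 9 genes. The 9 genes were chosen by their rise in KO mice, which favours high KO counts. The counts of KO and WT mice therefore cannot be compared.

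**Figure D4:**
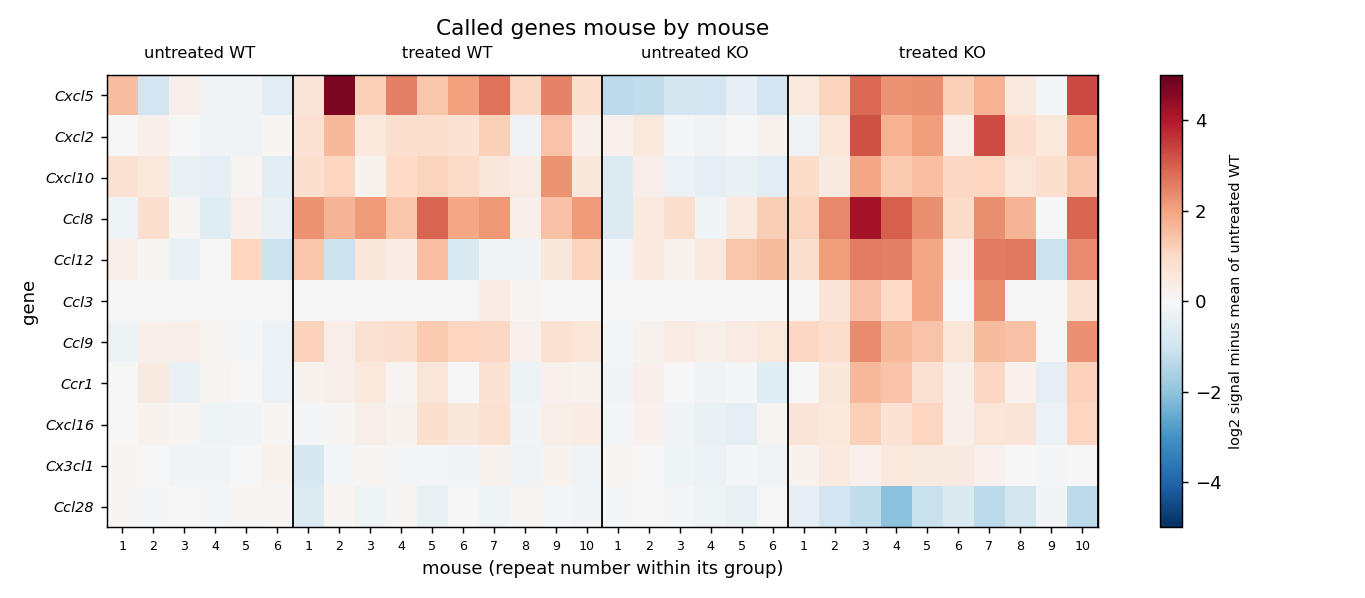
The 11 called genes in each mouse, as log2 signal minus the untreated WT mean (colour, blue below and red above it), with mice in columns by group and repeat number. Treated KO repeat 9 is paler than repeats 3, 4, 5 and 7, which lie above all untreated KO mice for all 9 risen genes, and the Ccl28 row is blue across most treated KO mice.

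Whether a ligand and its receptor varied together was measured within the treated groups for pairs above the floor on at least 8 of 10 arrays. This gave 19 relations from 18 listed pairs, and 0 had a Benjamini-Hochberg adjusted permutation p under 0.05 by Pearson's r (3 at an unadjusted p under 0.05). In treated KO mice Ccl2 and Ccr2 had r = 0.703 (permutation p = 0.0266, adjusted p = 0.169) and Spearman's rho = 0.891 (permutation p = 0.0013, adjusted p = 0.015). Ccl7 and Ccr2 had r = 0.716 (permutation p = 0.0224, adjusted p = 0.169) and rho = 0.879 (permutation p = 0.00158, adjusted p = 0.015). Without the 2 mice farthest from the median ligand level r was 0.805 and 0.817. Cxcl12 and its receptor gene Cxcr4 had r = 0.823 (permutation p = 0.00349, adjusted p = 0.0663) and rho = 0.758 (permutation p = 0.0146, adjusted p = 0.0926), and 0.795 without the 2 mice. Marker means varied in these mice too: the macrophage mean was 7.46 and 7.44 in repeats 1 and 9 and 9.41 in repeat 3, and the stromal mean 9.13, 9.26 and 11.14. Their part in these relations was not tested.

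In treated WT mice r was -0.0764 for Ccl2 with Ccr2 (permutation p = 0.849), -0.195 for Ccl7 with Ccr2 (permutation p = 0.568) and 0.495 for Cxcl12 with Cxcr4 (permutation p = 0.147). The difference between genotypes was not tested. Ccl2 spanned 4.57 to 5.37 in treated WT and 3.32 to 6.99 in treated KO mice. Of the 3 other Ccr2 probe sets, taken after the data were seen, rho in treated KO mice with Ccl2 was 0.782, 0.535 and 0.103 and with Ccl7 0.709, 0.608 and 0.176. The remaining 17 relations were not computed, 13 for the floor and 4 because a gene had no usable probe set.

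**Figure D5:**
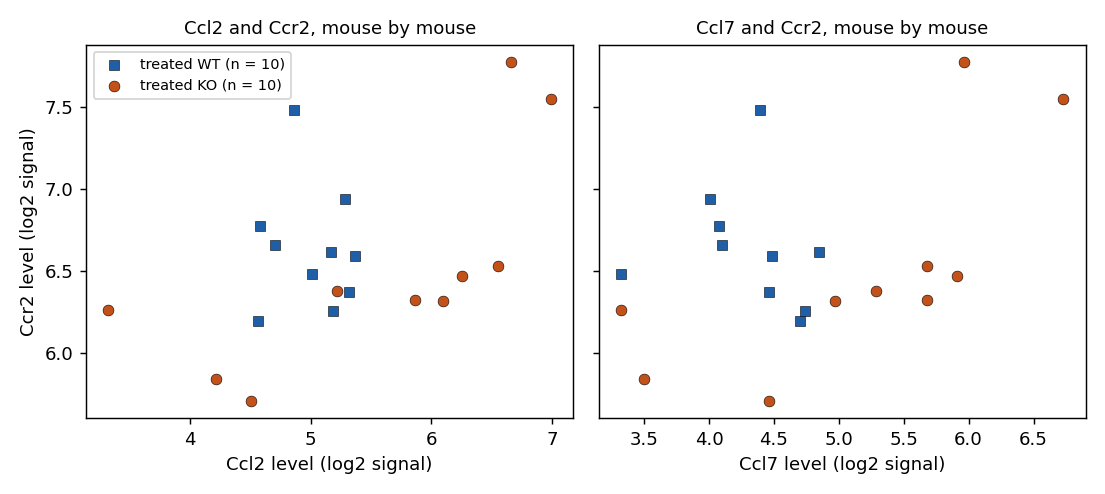
Ccr2 level (y axis, log2 signal) against Ccl2 (left) and Ccl7 (right) in each of 10 treated WT (blue squares) and 10 treated KO mice (orange circles). The KO points climb from lower left to upper right with rho of 0.891 and 0.879, and the WT points hold a narrow Ccl2 range of 4.57 to 5.37.

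Genes that act around the chemokines were read from lists. Of 22 measured genes of the Myd88 and NF-kappaB pathway 9 rose and 0 fell in KO mice (40.9% called, against 18.7% of all genes), with a median of 0.26. They included the NF-kappaB subunit gene Rel (0.89 ± 0.255, limma adjusted p = 0.0137) and Ticam1, the adaptor of the Myd88-independent branch (0.68 ± 0.14, adjusted p = 0.00127). Nfkbiz, a nuclear cofactor of NF-kappaB, rose by 0.61 ± 0.22 (adjusted p = 0.0475). Its means were 8.787 without and 9.396 with treatment in KO mice, and 9.188 and 9.393 in WT mice. Tnfaip3, a feedback inhibitor of the pathway, was at -0.01 ± 0.12. In WT mice 0 were called. Between treated genotypes 4 were higher in KO mice, Ticam1 among them (0.54 ± 0.12, adjusted p = 0.00418), and 3 lower (31.8% called, against 12.8% of all genes), among them Myd88 itself and the inhibitor gene Nfkbia (-0.53 ± 0.13, adjusted p = 0.0063).

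Of 22 measured genes that signal below chemokine receptors 7 rose and 2 fell in KO mice (40.9% called, against 18.7% of all genes). Prex1, which activates Rac in migrating leukocytes, rose by 1.00 ± 0.175 (limma adjusted p = 0.000234), and Itgb2, a leukocyte integrin subunit, by 0.70 ± 0.23 (adjusted p = 0.0341). Dpp4, a protease that trims chemokines, fell in KO mice (-0.42 ± 0.12, adjusted p = 0.0135) and in WT mice (-0.49 ± 0.12, adjusted p = 0.0272). Among 11 atypical receptors and other ligands 1 rose and 1 fell in KO mice (18.2% called). Ackr1, a chemokine-binding receptor of venules and red cells, rose by 0.60 ± 0.18 (adjusted p = 0.0167). Its means were 6.847 without and 7.45 with treatment in KO mice, and 7.315 and 7.44 in WT mice. Rarres2, which encodes chemerin, fell by 1.01 ± 0.21 on the log2 scale (adjusted p = 0.00129). Between treated genotypes the scavenging receptor gene Ackr2 was higher (0.41 ± 0.13, adjusted p = 0.0319) and Ackr3 lower in KO mice (-0.44 ± 0.14, adjusted p = 0.0363).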

How the data were processed

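Per the labels' protocols, total RNA was amplified and hybridised to Affymetrix arrays. The deposited table held log2 signals of 45101 probe sets (64 controls), not raw intensities. No header records the scaling: from the values, each array's 2% trimmed mean was 150.9 to 151.3 linear units, and 18.7% to 23.9% of an array sat at a floor of 10, which hides differences among dim genes. The summarising software is not given in the sources used here. A single symbol was given for 34945, more than 1 for 932 and no symbol for 9211. Values were quantile normalized, and 1 probe set per gene (highest mean) entered 1 linear model of all 32 arrays (limma 3.58.1, R 4.3.3; 4 group means, 28 residual and 1.1 prior degrees of freedom), with two-sided tests. The fit was tested on simulated data. The number of arrays limits precision, and p-values measure the spread between these mice. Members and lists were chosen with earlier results of these data known. Named genes were members called in any comparison, the brightest of each role group, those on the chromosome of Myd88 and up to 3 called per list. The few others were chosen after their values were seen. Correlations used 100000 permutations. Alternatives covered scaling, filter, probe set, samples, block, weights, covariates and each array left out. Promoter patterns were searched on both strands of the RefSeq table.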

Additional observations from a re-analysis of the deposited data

Results flagged for a closer look

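In 21 of 179 groups of values with any spread, 1 mouse lay far from the others of its group by Dixon's criterion, which chance alone meets in about 1 group in 20. Several concern genes at or near the floor, where most mice share 1 value. Ccl1 stood at 4.36 in untreated WT repeat 1, 4.08 in untreated KO repeat 4 and 4.62 in treated KO repeat 5. Cxcl3 stood at 4.04 in untreated WT repeat 1, 3.48 in untreated KO repeat 5 and 6.95 in treated WT repeat 2. Ccl24 stood at 3.83 and Ccr8 at 3.69 in untreated KO repeat 2, Ccr3 at 3.41 in untreated WT repeat 6, Ccr7 at 3.89 in untreated KO repeat 6, and Cxcl15 at 4.34 in untreated KO repeat 4. Ccl3 stood at 3.75 in treated WT repeat 7.

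Among brighter genes, treated WT repeat 2 was high for the neutrophil attractant Cxcl5 (9.82). Treated WT repeat 9 was high for Cxcl10 (7.72), and treated KO repeat 3 for Cxcr3 (6.64). Treated WT repeat 1 was low for Cx3cl1 (7.56) and treated WT repeat 8 low for Ccl5 (3.41). In treated KO repeat 6 Ccl4 was low at 5.075. Untreated KO repeat 2 was low for Ccl11 (5.76) and high for Ccl2 (5.92), and untreated WT repeat 3 was low for Ccl25 (4.97).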

How the results depend on the processing

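Of the 16 called differences, 0 changed direction under the settings run. Between treated genotypes 4 genes were called, against 1 with the treated groups fitted alone, 2 with RNA integrity (3'/5' difference) in the model, 2 without treated WT repeats 1 and 2, and 3 to 9 with 1 array left out. For the WT response 2 were called, against 4 with the dimmest 40% of genes left out, 1 with every probe set tested, 6 with array weights, 0 with RNA integrity in the model, 1 with the tissue covariates and 0 to 3 with 1 array left out. For the KO response 10 were called, and 9 to 14 with 1 array left out. For the difference of the responses array weights called 1, Ccl28. The untreated comparison called 0 throughout.

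Repeat numbers did not pair the mice: same-numbered arrays of different groups correlated at -0.166 to 0.343, over 0.1 in 3 of 40 pairs, and 1 of 32 arrays correlated best with its own number. With the replicate block the WT response called 1 gene (Ccl8; Cxcl5 at 2.09, adjusted p = 0.0704), the KO response 12 and the treated genotypes 4, with limma. Depth here is signal over the floor: 8 genes lay on the floor on 16 or more arrays, and their differences are compressed.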

Other observations

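Some endothelial and mast cell markers rose with treatment in KO mice, where 8.7% of all genes rose. Of 7 endothelial genes 5 rose, among them Madcam1, the gut addressin that lymphocytes bind (0.78 ± 0.22, limma adjusted p = 0.0112), and Lyve1 (0.85 ± 0.26, adjusted p = 0.0195). Of 7 mast cell genes 3 rose, led by the mucosal protease gene Mcpt2 (1.86 ± 0.44, adjusted p = 0.00317) and Mcpt1 (1.67 ± 0.53, adjusted p = 0.0272). Differences in KO mice lay below 0 for 2 of the 7 mast cell genes. These were Kit, the brightest of the list (mean 7.765 without and 7.626 with treatment), and Tpsb2 (4.477 and 4.207). In WT mice 0 genes of either list were called, with the endothelial median at 0.375 and the mast cell median at 0.305. The highest list means in treated KO mice were in repeat 3 for both, 7.09 and 6.96, the mouse highest for 5 of the 9 chemokine and receptor genes that rose.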
